A study of Mus musculus with 10 samples.

Results

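Transcript levels of 43 cell cycle and DNA replication genes were followed in microglia, the resident macrophages of the brain, from mice with 2, 1 or 0 intact copies of Trem2. The 43 genes were taken by name from a fixed list, which was chosen with earlier results of these data known. All 43 were found among the 24033 usable gene names of the RNA-seq tables. They comprise 25 genes of G2 and mitosis and 18 genes of the G1/S transition and S phase. Cells came from adult C57BL/6 mice of 3 to 5 months and were collected on beads that bind CD11b, a surface integrin that monocytes, neutrophils and border macrophages carry as well. There were 4 wild-type libraries (TREM2+/+, written WT: libraries 1 and 10 from females, 4 and 7 from males), 3 heterozygous libraries (TREM2+/-, Het: 5 and 11 from females, 8 from a male) and 3 knockout libraries (TREM2-/-, KO: 6 from a female, 9 and 12 from males). No treatment or further allele is named for any group, and whether a library held 1 mouse or a pool is not stated, so p-values measure the spread between libraries. The study asks whether loss of 1 Trem2 copy, the gene of a lipid-sensing myeloid receptor, is enough to alter microglia.

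Cell cycle genes are switched on in waves. In G1, E2F transcription factors, released from the retinoblastoma family by cyclin-dependent kinases, drive genes for origin licensing, nucleotide supply and DNA synthesis. Later, the MuvB complex with B-Myb and FoxM1 drives G2 and mitotic genes through a promoter element called CHR, often beside CCAAT boxes bound by NF-Y. In resting cells MuvB joins p130 or p107 as the DREAM complex and holds these genes down. Adult microglia renew themselves at a low rate in the brain, and in a bulk sample more cycling cells cannot be told apart from more RNA per cycling cell.

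Levels are in RPKM (reads scaled to gene length and to the library total), as deposited by the authors. Whole reads could be recovered from them and came to between 17.6 M and 45.1 M per library (M, megareads). Trem2 itself (chr17:48346401-48354147, plus strand, GRCm38) averaged 191 RPKM ± 31.1 (SD, n = 4) in WT, 93.9 ± 9.98 (n = 3) in Het and 24.5 ± 3.52 (n = 3) in KO, in the order of the labels; the labels do not say which part of the gene was removed. Summed RPKM of 10 microglial markers lay between 9080 and 11100 in all libraries. KO library 6 stood apart from the other 9. Its 12 measured neutrophil markers (13 listed) summed to 2380 RPKM against 108 to 397 elsewhere, and its 5 primary granule markers of granulocyte progenitors summed to 13.9 RPKM against 0.0192 to 1.18. It was also the only female KO library and the only KO library of low depth: it held 19.31 M reads, while KO libraries 9 and 12 held 38.12 M and 40.19 M. Fitted differences of the members are therefore given with and without it.

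Promoter motifs differed in frequency between the mitotic and the S-phase genes. Windows of 300 bases (250 before and 50 after each RefSeq start, GRCm38.p6) were found for 20 of the 25 mitotic and 16 of the 18 S-phase genes and were searched on both strands for CHR (TTTGAA or TTCGAA), for CCAAT and for E2F sites (TTTCCCGC, TTTGGCGC, TTTCGCGC or TTTGCCGC). A CHR match was present in 81% of the 21 windows of mitotic genes, in 22.2% of the 18 windows of G1/S and S-phase genes and in 19.2% of 32851 windows of all genes. A CCAAT match was present in 90.5%, 77.8% and 37.4%. Both together were present in 81% of the mitotic windows, 22.2% of the S-phase windows and 7.52% of all windows. E2F matches showed the other order, with 4.76% of mitotic windows, 27.8% of S-phase windows and 2.26% of all windows. A match is a string of letters and no evidence of binding.

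**Figure D1:**
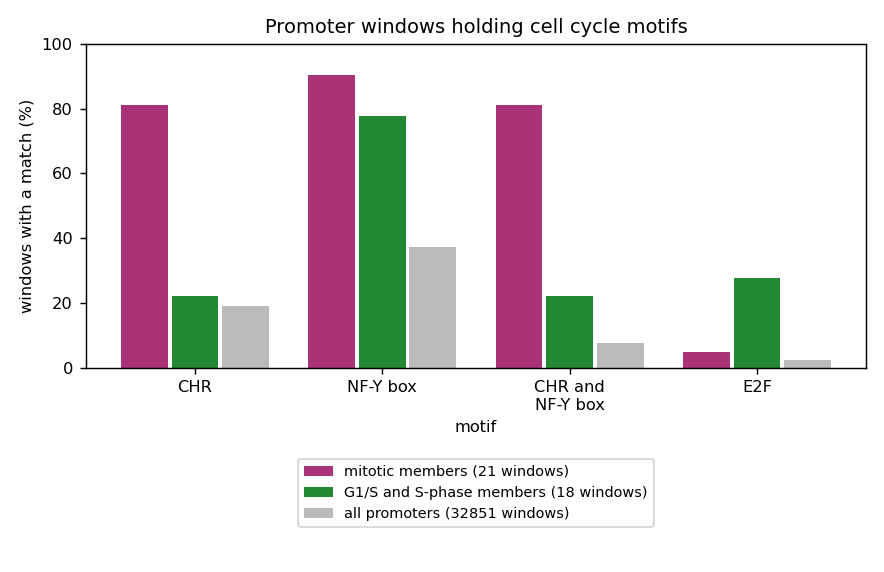
Share of 300-base promoter windows (vertical axis, %) with at least 1 match to CHR, to the CCAAT box bound by NF-Y, to both, and to E2F sites. Mitotic windows (purple) hold CHR and the NF-Y box together in 81% of cases against 7.52% of all promoters (grey), while S-phase windows (green) lead only for E2F.

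The 200 bases before the start of 3 mitotic and 2 replication genes are printed to show this difference, 5′ to 3′ on the coding strand, with CHR, CCAAT and E2F matches in capitals (ATTGG and TTCAAA are CCAAT and CHR read on the other strand). They are RefSeq sequences of GRCm38.p6. Mcm6 was picked after its matches had been seen.
Mki67: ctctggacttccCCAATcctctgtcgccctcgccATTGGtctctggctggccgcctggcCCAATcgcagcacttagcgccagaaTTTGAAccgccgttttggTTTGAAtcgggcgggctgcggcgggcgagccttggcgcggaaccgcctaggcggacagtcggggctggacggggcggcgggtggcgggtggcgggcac
Top2a: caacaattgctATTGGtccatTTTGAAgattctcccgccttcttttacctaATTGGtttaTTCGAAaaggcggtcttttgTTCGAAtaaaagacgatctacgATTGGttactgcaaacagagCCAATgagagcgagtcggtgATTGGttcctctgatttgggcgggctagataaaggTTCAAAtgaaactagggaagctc
Kif11: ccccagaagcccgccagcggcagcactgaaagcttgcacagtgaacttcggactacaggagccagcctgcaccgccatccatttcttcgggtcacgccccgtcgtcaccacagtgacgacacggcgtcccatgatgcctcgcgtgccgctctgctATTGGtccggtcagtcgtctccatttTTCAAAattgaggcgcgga
Mcm3: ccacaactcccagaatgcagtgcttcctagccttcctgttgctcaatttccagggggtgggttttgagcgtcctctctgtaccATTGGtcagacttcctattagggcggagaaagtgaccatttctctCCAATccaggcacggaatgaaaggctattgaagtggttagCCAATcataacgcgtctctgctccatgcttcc
Mcm6: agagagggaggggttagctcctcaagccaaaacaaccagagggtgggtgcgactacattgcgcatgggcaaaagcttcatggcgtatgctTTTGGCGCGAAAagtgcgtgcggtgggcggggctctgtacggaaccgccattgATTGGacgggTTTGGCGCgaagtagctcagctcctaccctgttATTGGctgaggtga
The Mki67 stretch (chr7:135716380-135716579, minus strand) held CHR matches 116 and 98 bases before the start, downstream of 3 CCAAT boxes. In Top2a (chr11:99024190-99024389, minus strand), CHR matches lay 179, 140, 120 and 23 bases before the start with CCAAT boxes between them. Kif11 (chr19:37376182-37376381, plus strand) had 1 of each, 19 and 45 bases before the start. The Mcm3 stretch (chr1:20820313-20820512, minus strand) had 3 CCAAT boxes and no CHR match, and its 2 E2F matches lay 19 and 38 bases after the start. In Mcm6 (chr1:128359706-128359905, minus strand), E2F matches lay 110, 106 and 47 bases before the start; the first pair overlap on opposite strands. Mitotic windows without a CHR match were those of Nusap1, Birc5, Ccnb1 and Cenpe.

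Mitotic transcripts were scarce in these cells. Mean WT levels of the 25 mitotic genes ranged from 0.217 RPKM (Ccnb1) to 5.29 RPKM (Mki67), with a median of 1.11, and 11 of them lay under 1 RPKM. The 18 G1/S and S-phase genes ranged from 0.336 (Ccne1) to 46.6 RPKM (Pcna), with a median of 2.14 and 6 under 1 RPKM. The median over all 13621 genes tested was 6.04 RPKM. Depth limited the scarcest members: 7 mitotic and 5 S-phase genes had fewer than 10 reads in at least 1 library. The filter of 0.5 RPKM in at least 3 libraries was passed by 41 of the 43 genes (24 mitotic, 17 S-phase); Ccnb1 and Ccne1 did not pass and were not tested.

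No cell cycle gene differed between genotypes at an adjusted p under 0.05. In KO against WT, 0 of 41 were called, against 0.00734% of all genes tested (1 gene, Trem2), and the lowest adjusted p among the 41 was 0.937 (limma, Benjamini-Hochberg over all genes). At an unadjusted p under 0.05, 4 of 41 were higher in KO (Ube2c, Mki67, Asf1a and Fbxo5), or 9.76% against 3.32% of all genes, and 0 were lower, against 1.81% of all genes. On whole reads, limma-voom also called 0 of 41 (0.0147% of all genes); at an unadjusted p under 0.05 it put 8 of 41 higher (3.34% of all genes) and 0 lower (1.72%). The direction leaned one way: the fitted log2 difference was above 0 for 21 of 24 mitotic genes (median 0.35) and for 13 of 17 S-phase genes (median 0.28), whereas over all genes 57.2% were above 0 with a median of 0.03.

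The mitotic genes with the highest levels and the largest differences were Mki67, Top2a, Ube2c, Kif11, Aurkb and Ccna2. Mki67 encodes a protein that coats mitotic chromosomes and is the common stain for proliferating cells. It stood at 4.62, 4.43, 5.44 and 6.69 RPKM in WT libraries 1, 4, 7 and 10, at 6.31, 5.55 and 5.03 in Het libraries 5, 8 and 11, and at 15.2, 6.09 and 6.05 in KO libraries 6, 9 and 12 (the order used for every gene that follows). KO library 6 was far above the other 9, and KO libraries 9 and 12 lay within the WT range. The KO to WT ratio of mean RPKM was 1.72, or 1.15 without library 6, and the fitted log2 difference of 0.69 (SE 0.24, adjusted p = 0.942) became 0.25 (SE 0.20).

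Top2a, the topoisomerase that untangles sister chromatids, was at 2.75, 3.25, 3.23 and 4.88 RPKM in WT, 4.43, 2.09 and 2.59 in Het, and 9.42, 3.67 and 3.26 in KO. KO library 6 was again alone at the top, and the remaining KO libraries fell inside the WT range. Its log2 difference was 0.55 (SE 0.27, adjusted p = 0.977) with library 6 and 0.17 (SE 0.29) without. Ccna2, cyclin A2 of S phase and G2, read 0.995, 1.65, 1.45 and 2.40 RPKM in WT, 2.10, 1.51 and 1.77 in Het, and 5.03, 1.22 and 2.77 in KO. KO library 9 lay within the WT range, libraries 12 and 6 lay above it, and the log2 difference went from 0.68 (SE 0.33) to 0.26 (SE 0.35). Exons of Ccna2 share 12.5% of their bases with Exosc9 on the opposite strand, and no source says that counting kept strand.

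Ube2c was highest in another KO library. It encodes the ubiquitin-conjugating enzyme that works with the anaphase-promoting complex. Its level was 1.76, 1.78, 1.8 and 3.41 RPKM in WT, 1.74, 5.06 and 2.02 in Het, and 6.34, 3.13 and 8.15 in KO. KO library 12 exceeded library 6, and KO library 9 lay below WT library 10, so the groups overlapped. Its log2 difference was the largest of the 41, at 1.18 (SE 0.38, adjusted p = 0.937), and still 0.97 (SE 0.47, adjusted p = 0.799) without library 6. Tnnc2, which shares 22.8% of the Ube2c exon bases on the opposite strand, was at 0 to 0.192 RPKM.

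Aurkb, the kinase of the chromosomal passenger complex, followed the pattern of Ube2c, with 0.408, 0.698, 0.997 and 1.33 RPKM in WT, 0.442, 0.898 and 0.536 in Het, and 2.51, 0.657 and 2.80 in KO. KO libraries 6 and 12 lay above every WT and Het library, and KO library 9 among the lower ones. The log2 difference was 0.78 (SE 0.39, adjusted p = 0.977), and 0.46 (SE 0.46) without library 6; it was 1.26 without KO library 9 and 0.11 with sample quality weights. Kif11, the kinesin that pushes spindle poles apart, was at 1.54, 1.29, 2.14 and 2.97 RPKM in WT, 2.11, 3.12 and 1.68 in Het, and 3.93, 2.45 and 2.76 in KO. Of the KO libraries, only 6 exceeded the WT range. Its log2 difference was 0.56 (SE 0.27) with library 6 and 0.34 (SE 0.33) without.

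**Figure D2:**
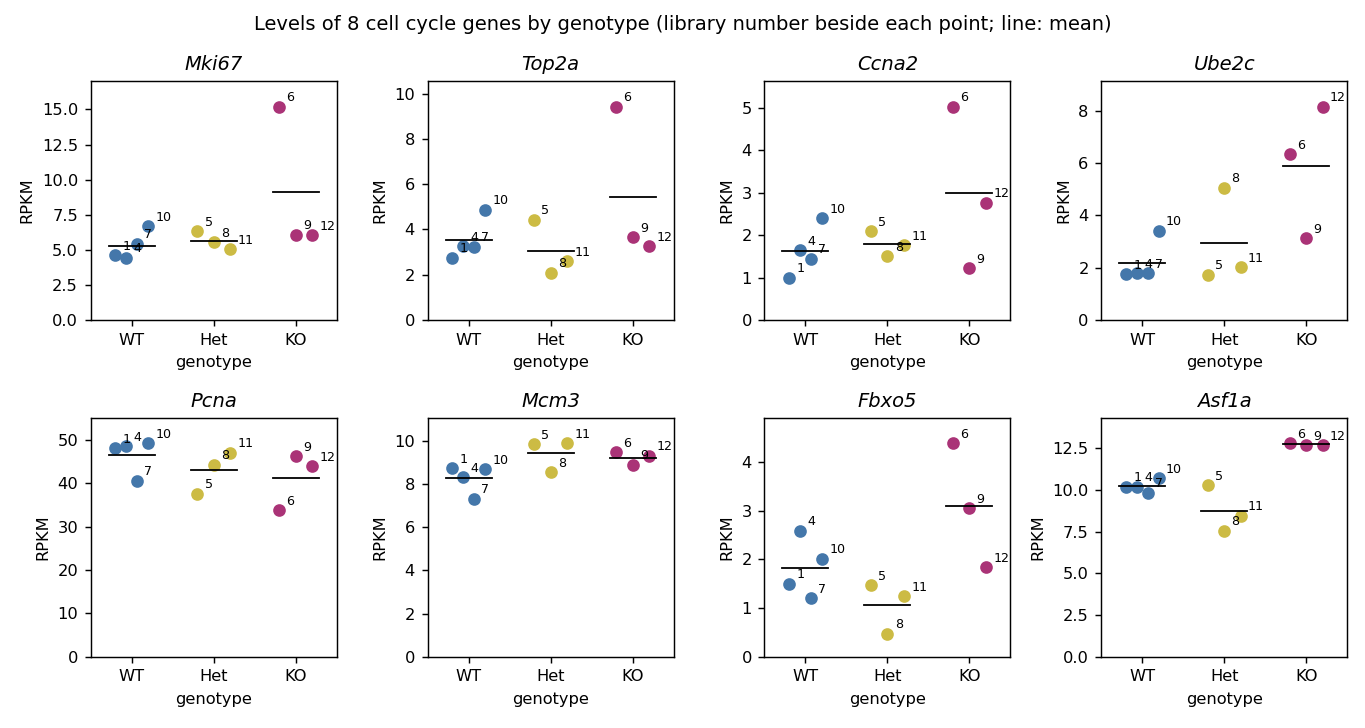
Levels in RPKM (vertical axes from 0) of 8 cell cycle genes by genotype; each point is 1 library with its number, and the line is the group mean. KO library 6 is far above the rest for Mki67 (15.2), Top2a (9.42) and Ccna2 (5.03), lowest for Pcna (33.8), and level with KO libraries 9 and 12 for Asf1a (12.7 to 12.8).

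The other mitotic genes fell into roles as follows. Among cyclins and the mitotic kinase and its ligase partner, Ccnb2 averaged 1.89 RPKM ± 0.774 in WT and 3.02 ± 0.893 in KO. Cdk1, the kinase that cyclins A and B activate, averaged 0.317 ± 0.192 in WT, 0.582 ± 0.294 in Het and 0.549 ± 0.309 in KO. Cdc20, an activator of the anaphase-promoting complex, averaged 0.728 ± 0.445 and 0.987 ± 0.256 in WT and KO. In all 3 of these genes the KO and WT ranges overlapped. Their log2 differences of 0.55 (SE 0.36), 0.40 (SE 0.28) and 0.27 (SE 0.31) were 0.13 (SE 0.40), 0.20 (SE 0.35) and 0.17 (SE 0.39) without library 6. Ccnb1, the partner cyclin that was too scarce to test, averaged 0.217 ± 0.146, 0.184 ± 0.104 and 0.318 ± 0.131 in WT, Het and KO. Plk1 was level, at 0.392 ± 0.202 in WT and 0.401 ± 0.301 in KO, with log2 differences of 0.05 (SE 0.29) and, without library 6, 0.15 (SE 0.37).

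Checkpoint and kinetochore genes mostly overlapped between genotypes. Bub1, a checkpoint kinase, averaged 0.274 RPKM ± 0.197 in WT and 0.482 ± 0.317 in KO (log2 difference 0.39, SE 0.27; under the filter without library 6). Bub1b, which restrains the anaphase-promoting complex until chromosomes attach, averaged 1.57 RPKM ± 0.29 in WT and 1.83 ± 0.433 in KO, and its log2 difference of 0.16 (SE 0.21) became -0.10 (SE 0.24) without library 6. Cenpe, a kinetochore motor, was at 2.86 RPKM in KO library 6 and at 1.10 and 0.888 in KO libraries 9 and 12, against 1.08 to 1.78 in WT. Its log2 difference turned from 0.18 (SE 0.26) to -0.23 (SE 0.26). Cenpf stayed above 0 at 0.31 (SE 0.21) and 0.19 (SE 0.27). It was the 1 mitotic gene whose KO libraries (1.59 to 2.22 RPKM) all lay above all Het libraries (1.22 to 1.56). That is 4.17% of the tested mitotic genes, against 4.4% of all genes.

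Among spindle and cytokinesis genes, some differences turned without library 6 and others hardly moved. Nusap1, a microtubule bundling protein, was at 3.50 RPKM in KO library 6, at 0.762 and 0.882 in KO libraries 9 and 12, and between 1.08 and 1.35 in WT. KO libraries 9 and 12 were thus both below all 4 WT libraries, and the log2 difference turned from 0.27 (SE 0.30) to -0.23 (SE 0.27). Tpx2, an activator of Aurora A on the spindle, averaged 0.773 RPKM ± 0.42 in WT and 1.30 ± 0.801 in KO, with 2.19 in library 6, and its log2 difference of 0.56 (SE 0.29) became 0.36 (SE 0.36). Prc1 and Kif23, which build the central spindle, went from 0.10 to -0.21 and from -0.01 to -0.38 in log2 difference when library 6 was left out, with SEs of 0.22 to 0.31. Exons of Prc1 share 11.1% of their bases with Rccd1, and those of Kif20a 29.3% with Cdc23. Kif20a, a cytokinesis kinesin, averaged 0.675 RPKM ± 0.318 in WT and 1.09 ± 0.291 in KO, with log2 differences of 0.49 (SE 0.26) and, without library 6, 0.43 (SE 0.33). Stmn1, which destabilises microtubules, averaged 0.331 ± 0.196 in WT and 0.611 ± 0.197 in KO, with as little as 1 read in a library and log2 differences of 0.49 (SE 0.25) and, without library 6, 0.47 (SE 0.32). Cdca3 averaged 1.05 ± 0.858 and 1.07 ± 0.48, and Cdca8, a passenger complex subunit, 0.662 ± 0.521 and 0.804 ± 0.325, in WT and KO. Their log2 differences were 0.23 (SE 0.42) and 0.26 (SE 0.41), or 0.11 (SE 0.54) and 0.23 (SE 0.53) without library 6.

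Birc5 and Aurka went the other way. Birc5, the survivin subunit of the passenger complex, was at 0.243 to 0.888 RPKM in WT, 0.0946 to 0.364 in Het and 0.0998 to 0.515 in KO. Aurka, the kinase of spindle poles, averaged 1.11 RPKM ± 0.408 in WT, 0.711 ± 0.227 in Het and 0.815 ± 0.18 in KO. Their log2 differences in KO against WT were -0.30 (SE 0.29) and -0.22 (SE 0.24), with overlapping groups; without library 6 Birc5 was under the filter and Aurka was at -0.26 (SE 0.31). Together with Kif23 they are the 3 tested mitotic genes below 0 in that comparison.

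Among the G1/S and S-phase genes, the abundant ones were steadier than the mitotic genes. Pcna, the sliding clamp of DNA polymerases, was at 48.1, 48.5, 40.6 and 49.2 RPKM in WT, 37.6, 44.3 and 47.0 in Het, and 33.8, 46.2 and 43.9 in KO. KO library 6, which was highest for most members, was lowest for Pcna. The log2 difference was -0.19 (SE 0.13, adjusted p = 0.991), or -0.02 (SE 0.13) without library 6. RefSeq names 2 Pcna pseudogenes, and 1 each for Tyms, Ccnb1 and Ccnb2, so part of the reads of these genes may be split among copies.

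Mcm3, a subunit of the MCM helicase that opens replication forks, was at 8.73, 8.33, 7.32 and 8.70 RPKM in WT, 9.84, 8.55 and 9.89 in Het, and 9.47, 8.90 and 9.32 in KO. All 3 KO libraries were above all 4 WT libraries, and 2 of the 3 Het libraries were higher still. Its log2 difference was 0.17 (SE 0.11, adjusted p = 0.982), and 0.22 (SE 0.14) without library 6. Tk1, the thymidine kinase of nucleotide salvage, was at 8.88, 4.60, 8.75 and 7.89 RPKM in WT, 7.15, 7.37 and 9.28 in Het, and 5.94, 6.99 and 7.70 in KO. The KO values lay within the WT range, and the log2 difference was -0.07 (SE 0.21) with library 6 and 0.14 (SE 0.25) without.

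Asf1a separated KO from both other genotypes. It encodes a chaperone of histones H3 and H4. Its level was 10.2, 10.2, 9.83 and 10.7 RPKM in WT, 10.3, 7.56 and 8.45 in Het, and 12.8, 12.7 and 12.7 in KO. Every KO library was above every WT and Het library, and library 6 did not differ from its group. The KO to WT ratio of mean RPKM was 1.24 with and without library 6. The log2 difference was 0.32 (SE 0.12, unadjusted p = 0.0185, adjusted p = 0.942) in KO against WT and 0.56 (SE 0.13, unadjusted p = 0.00104) in KO against Het. Exons of Asf1a share 48% of their bases (1748 of 3638) with Mcm9 on the opposite strand, and reads there cannot be told apart without strand; Mcm9 averaged 4.84 RPKM ± 0.926 in WT and 6.18 ± 1.35 in KO, with overlapping groups.

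Fbxo5 had the largest log2 difference between KO and Het of the 41 tested members. It encodes Emi1, an inhibitor of the anaphase-promoting complex that lets cells commit to S phase. It was at 1.5, 2.59, 1.2 and 2.01 RPKM in WT, 1.47, 0.471 and 1.24 in Het, and 4.38, 3.05 and 1.84 in KO. All KO libraries were above all Het libraries, while WT overlapped both. The log2 difference was 0.68 (SE 0.29, adjusted p = 0.969) in KO against WT, -0.68 (SE 0.29) in Het against WT and 1.36 (SE 0.32, unadjusted p = 0.00129, adjusted p = 0.999) in KO against Het. Without library 6 it was 0.52 (SE 0.36) against WT and 1.19 against Het.

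Ccne2, cyclin E2 of the G1/S transition, was at 0.717, 0.954, 0.942 and 0.764 RPKM in WT, 0.789, 0.652 and 0.711 in Het, and 1.30, 1.19 and 1.17 in KO. KO was above both other groups in every library, at a log2 difference of 0.36 (SE 0.19, adjusted p = 0.977) against WT and 0.28 (SE 0.25) without library 6. Its exons share 17.4% of their bases with the more abundant Ints8 (17.1 RPKM ± 2.18 in WT, 15.8 ± 2.73 in KO) on the opposite strand. Rrm2, the small subunit of ribonucleotide reductase, was at 0.448, 1.14, 0.199 and 1.10 RPKM in WT, 0.323, 1.01 and 1.37 in Het, and 2.30, 0.794 and 0.867 in KO. Library 6 was the only KO library above the WT range, and the log2 difference went from 0.62 (SE 0.40) to 0.21 (SE 0.47). Uhrf1, which brings the maintenance DNA methyltransferase to replicated DNA, was at 0.438, 0.120, 0.312 and 0.668 RPKM in WT, 0.459, 0.186 and 0.627 in Het, and 0.709, 0.424 and 0.640 in KO. Its groups overlapped, with log2 differences of 0.41 (SE 0.23) and, without library 6, 0.54 (SE 0.29).

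The remaining MCM subunits were close between genotypes. Mean RPKM in WT and KO was 2.46 ± 0.894 and 3.03 ± 1.13 for Mcm2, 5.48 ± 0.809 and 5.12 ± 0.811 for Mcm4, and 1.72 ± 0.923 and 1.93 ± 0.45 for Mcm5. Mcm6 averaged 4.71 ± 0.622 and 5.70 ± 1.01, and Mcm7 averaged 3.30 ± 0.804 and 4.15 ± 1.16. Their log2 differences ran from -0.04 (Mcm4) to 0.35 (Mcm7), with SEs of 0.16 to 0.25 and overlapping groups in all 5. Without library 6 they were 0.47 (SE 0.31) for Mcm2, 0.03 (SE 0.21) for Mcm4, 0.31 (SE 0.32) for Mcm5, 0.24 (SE 0.22) for Mcm6 and 0.23 (SE 0.25) for Mcm7. Mcm7 shares 12.6% of its exon bases with other genes, among them Mir25 and Mir93.

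Nucleotide synthesis genes were split. Tyms, thymidylate synthase, averaged 1.77 RPKM ± 0.13 in WT, 2.05 ± 0.371 in Het and 2.31 ± 0.465 in KO, and its KO libraries (1.93 to 2.83) all lay just above the WT range (1.61 to 1.92). Its log2 difference was 0.31 (SE 0.19), or 0.16 (SE 0.23) without library 6. Rrm1, the large subunit of ribonucleotide reductase, averaged 5.38 ± 0.873 in WT and 5.14 ± 0.755 in KO, at log2 differences of -0.04 (SE 0.16) and -0.05 (SE 0.20). E2f1, the best known activator of the G1/S wave, was scarce at 0.398 ± 0.252, 0.671 ± 0.293 and 0.376 ± 0.103 in WT, Het and KO, at log2 differences in KO against WT of 0.01 (SE 0.30) and, without library 6, 0.06 (SE 0.38). Ccne1, cyclin E1, was too scarce to test, at 0.336 ± 0.161, 0.202 ± 0.0938 and 0.282 ± 0.142. Asf1b, the replication-linked paralog of Asf1a, was at 1.72 RPKM in KO library 6 and at 0.443 and 0.373 in libraries 9 and 12, within the WT range of 0.136 to 1.19. In contrast to Asf1a, its log2 difference turned from 0.25 (SE 0.41) to -0.28 (SE 0.44) without library 6.

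**Figure D3:**
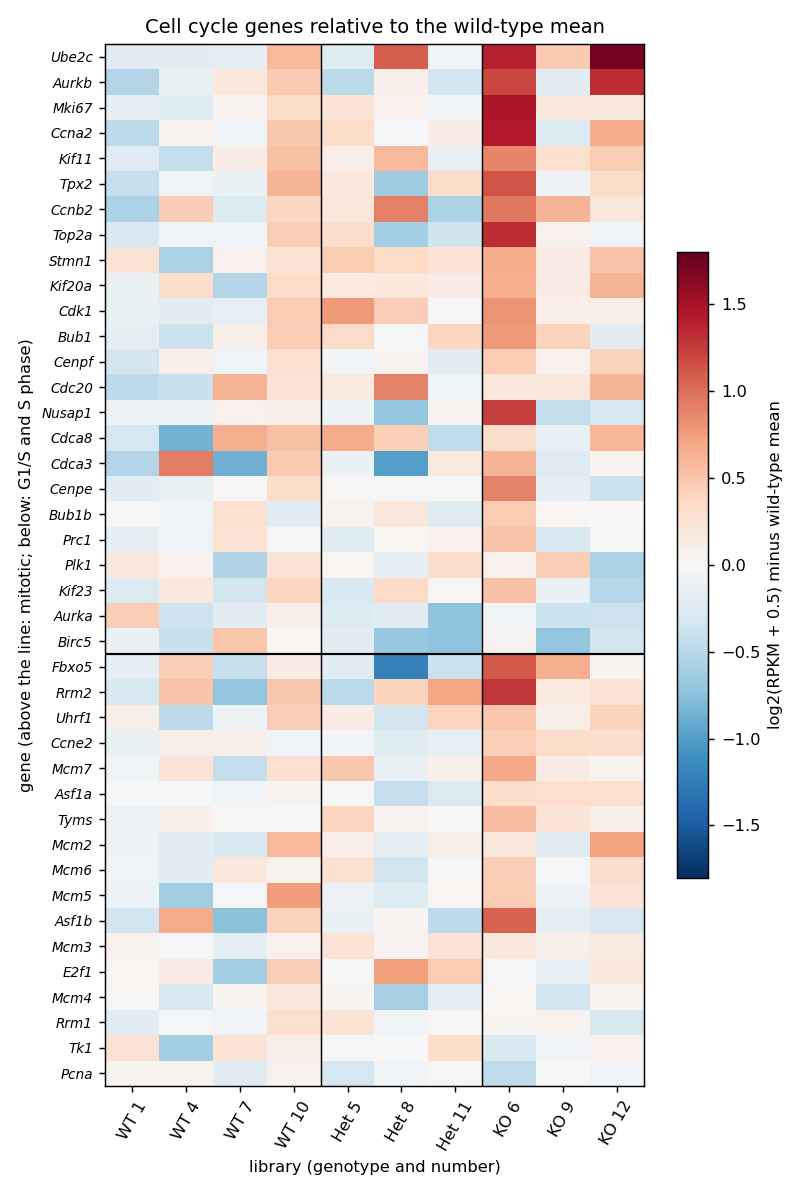
Difference of each of the 41 tested genes from its wild-type mean in log2(RPKM + 0.5) (colour: red above, blue below), 1 column per library and 1 row per gene, mitotic genes above the line. The KO library 6 column is the reddest, and it holds the highest value of the row for 16 of 24 mitotic and 9 of 17 S-phase genes.

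KO library 6 held the highest of the 10 values for 25 of the 41 tested members (61%), against 15.6% of all genes tested. KO library 12 did so for 3 (Ube2c, Aurkb and Mcm2), against 14.1% of all genes, and KO library 9 for 1 (Plk1, the polo-like kinase), against 6.74%. In 7 genes the level in library 6 was over 1.5 times that of the next library: Mki67, Top2a, Ccna2, Cenpe, Nusap1, Tpx2 and Rrm2. How often this held over all genes was not counted, so the 7 have no share to be set against. Median deviations of the mitotic genes from their WT means were 0.71 on the log2 scale in KO library 6, 0.05 in library 9, 0.15 in library 12 and 0.36 in WT library 10. For S-phase genes they were 0.43, 0.07, 0.17 and 0.21.

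Summed levels show the same. The 25 mitotic genes summed to 26.5, 31.1, 32.6 and 44.5 RPKM in WT, 36.0, 38.1 and 29.7 in Het, and 74.5, 34.6 and 44.5 in KO. Library 6 was far above the rest, and the other KO libraries lay within the WT range. The mean was 33.7 ± 7.69 in WT and 34.6 ± 4.34 in Het; in KO it was 51.2 ± 20.8, or 39.6 without library 6. The S-phase genes other than Pcna summed to 54.7, 52.1, 53.0 and 64.3 RPKM in WT, 60.5, 47.8 and 57.1 in Het, and 70.3, 58.6 and 62.9 in KO, so that libraries 9 and 12 fell below WT library 10. With Pcna, which outweighs the rest, the sums were 93.6 to 114 in WT, 92.2 to 104 in Het and 104 to 107 in KO.

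**Figure D4:**
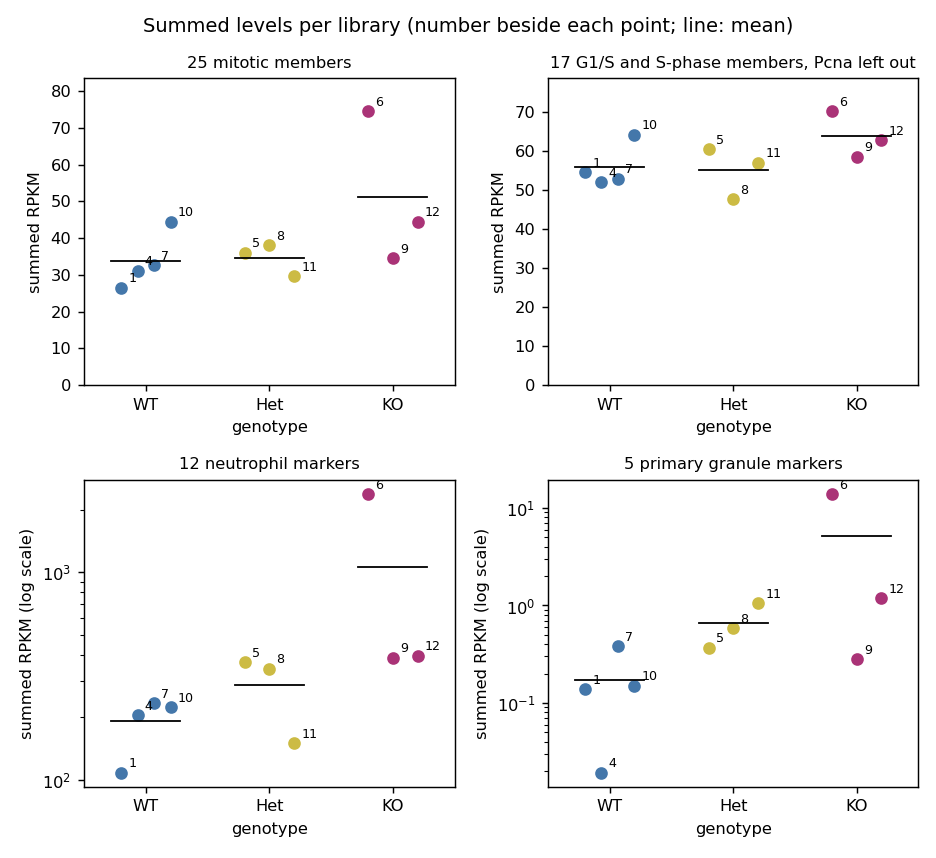
Summed RPKM per library (points with library number; line: group mean) of the mitotic genes, of the S-phase genes without Pcna, and, on log axes, of neutrophil and primary granule markers. KO library 6 is highest in all 4 panels, at 74.5, 70.3, 2380 and 13.9 RPKM; the nearest other mitotic sum is 44.5.

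Markers of other cells were set beside these sums. Of the primary granule genes, which granulocyte progenitors make while they still divide, Mpo was at 6.02 RPKM and Elane at 6.53 in KO library 6, Ms4a3 was at 0.872 there and listed at 0 in the other 9 libraries, and Prtn3 and Ctsg were at 0.214 and 0.258. In the other libraries neutrophil sums were 108 to 234 RPKM in WT, 150 to 368 in Het, and 387 and 397 in KO libraries 9 and 12. Of 12 tested neutrophil markers, 10 were higher in KO against WT at an unadjusted p under 0.05 (limma, 3.32% of all genes). Without library 6 it was 5 of 11 (4.56% of all genes), with a median log2 difference of 0.97. Monocyte markers summed to 260 in library 6 and to 129 to 266 elsewhere; their median deviation from the WT mean was 0.64 on the log2 scale in library 6 and -0.22 to 0.37 elsewhere, and 4 of 10 tested were higher in KO against WT at an unadjusted p under 0.05 (3.32% of all genes). Neuroblast markers summed to 0.839 to 2.75 over all libraries and oligodendrocyte precursor markers to 0.664 to 2.89. Library 6 was at neither end of either range. Border macrophage markers spanned 86.8 to 179, endothelial markers 114 to 203, astrocyte markers 27.8 to 47.3, oligodendrocyte markers 19.3 to 23.5 and neuron markers 1.79 to 4.53. Library 6 and WT library 7 were both at the top of the endothelial range, at 203. The median deviation of endothelial markers was 0.37 in library 6 and -0.40 to 0.27 elsewhere. B cell, T and NK cell and erythroid markers summed to 3.25 to 7.13, 0.669 to 1.76 and 0.173 to 1.54. The part of any of these cells in the cell cycle values was not tested.

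The mitotic sum was also read by depth. Among the 4 libraries with over 35 M reads, the mitotic sum was 44.5 in WT library 10, 29.7 in Het library 11, and 34.6 and 44.5 in KO libraries 9 and 12. Among the 6 shallower libraries it was 26.5 to 32.6 in WT, 36.0 and 38.1 in Het and 74.5 in KO library 6, the 1 KO library of that depth. The deeper library was thus higher than the shallower ones in WT and lower in Het and KO, and each depth held too few libraries of a genotype for a comparison. Sex and depth cannot be told apart from library 6 within KO.

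Without library 6, 0 of 39 testable members were called in KO against WT (0.0222% of all genes), and Asf1a was the only 1 at an unadjusted p under 0.05 and higher, or 2.56% against 4.56% of all genes; 0 were lower, against 1.86% of all genes. Bub1 and Birc5 no longer passed the filter. KO libraries 9 and 12 are male, so the sex term of this fit rests on WT and Het libraries alone. Fitted differences and plain KO to WT ratios of mean RPKM could then point different ways. Mcm5 had a log2 difference of 0.31 with a ratio of 0.997, and Bub1b had -0.10 with 1.01. The median log2 difference of the mitotic genes dropped to 0.18, with 16 of 22 above 0, and that of the S-phase genes to 0.22, with 14 of 17 above 0; over all genes it was 0.04, with 57% above 0. Asf1a, Ccne2, Mcm3 and Tyms were the members whose KO libraries all lay above all WT libraries, 9.76% of members against 2.99% of all genes, and all 4 are S-phase genes; 0 members lay below all WT libraries, against 1.6% of all genes. When only libraries 9 and 12 are considered, these 4 must again lie above WT, and no other member joined them. That is 9.76% of members against 7.14% of all genes. Nusap1 alone lay below WT, or 2.44% of members against 4.71% of all genes.

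**Figure D5:**
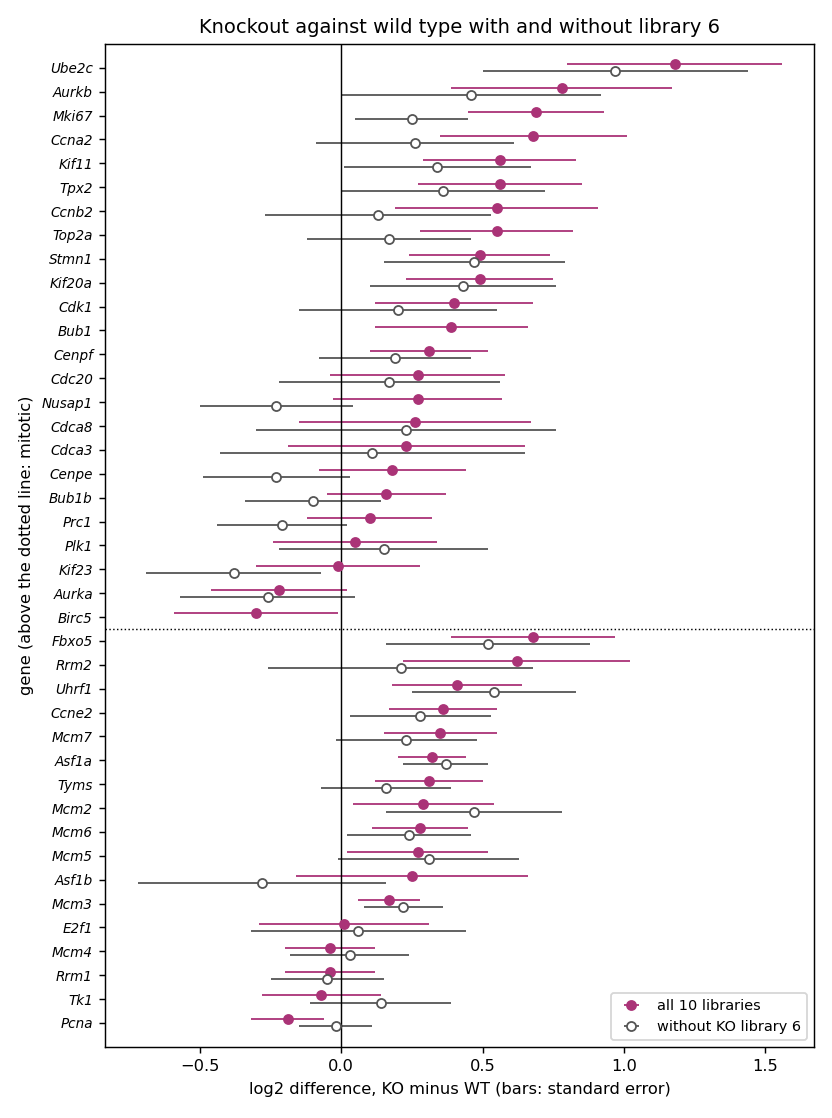
Fitted log2 difference, KO minus WT, for each tested gene (bars: standard error) with all 10 libraries (filled) and without KO library 6 (open), mitotic genes above the dotted line. Most mitotic points move toward 0 without library 6, Mki67 from 0.69 to 0.25 and Nusap1 from 0.27 to -0.23, while Asf1a goes from 0.32 to 0.37.

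Differences between Het and WT were centred near 0. In Het against WT, 0 of 41 members were called (0% of all genes), 0 were higher at an unadjusted p under 0.05 (1.4% of all genes) and 1, Fbxo5, was lower (1.35% of all genes). The median log2 difference was 0.01 for mitotic genes, with 14 of 24 above 0, and -0.02 for S-phase genes, with 7 of 17 above 0; over all genes 50.3% were above 0. No member separated Het from WT in either direction, against 2.23% of all genes higher and 2.3% lower. The test was coarse: the SE of the log2 difference was 0.24 for Mki67 and 0.38 for Ube2c.

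In KO against Het, 0 of 41 were called (0.00734% of all genes). At an unadjusted p under 0.05, 7 were higher in KO (Mki67, Top2a, Aurkb, Tpx2, Ccne2, Fbxo5 and Asf1a), against 2.2% of all genes, and 0 were lower (1.15%). Median log2 differences were 0.30 for mitotic genes (22 of 24 above 0) and 0.31 for S-phase genes (13 of 17), against 57.1% of all genes above 0. Without library 6, 0 were called (0.0074% of all genes), Fbxo5 and Asf1a were higher at an unadjusted p under 0.05 (2.42% of all genes) and 0 were lower (1.23%), and the medians were 0.15 and 0.13. Cenpf, Ccne2, Fbxo5 and Asf1a were above every Het library in every KO library, against 4.4% of all genes. This comparison shares its KO libraries with that against WT.

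Genes that act beside the members were listed in 5 further groups, and none of their genes was called in KO against WT. Over all genes tested, 3.32% were higher and 1.81% lower at an unadjusted p under 0.05, and 57.2% were above 0. Of 43 tested genes of origin licensing and the replication fork (46 listed), 2 were higher at an unadjusted p under 0.05 and 0 lower, 23 were above 0 and the median was 0.06, or 0.00 without library 6. Dbf4, the activating subunit of the Cdc7 kinase that fires origins, averaged 2.85 RPKM ± 0.413 in WT, 2.85 ± 0.507 in Het and 4.06 ± 0.489 in KO. Its 3 KO libraries lay above all others (log2 difference 0.48, SE 0.17, adjusted p = 0.942, or 0.56, SE 0.22, without library 6). Dbf4 was named for the smallest unadjusted p of the group. Over all genes, 2.99% had every KO library above every WT library. The abundant members of the group were level, with Orc3 of the origin recognition complex at 50.5 ± 10.8 RPKM in WT and 46.0 ± 2.12 in KO.

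Of 31 tested genes of G1 control and cell cycle exit (33 listed), 1 was higher and 1 lower at an unadjusted p under 0.05, against 3.32% and 1.81% of all genes, 19 were above 0, against 57.2%, and the median was 0.05, or -0.01 without library 6. Ccnd1, cyclin D1, which opens G1 with Cdk4 and Cdk6, was at 59.5, 53.7, 52.5 and 58.5 RPKM in WT, 63.7, 59.5 and 59.8 in Het, and 76.6, 63.2 and 69.7 in KO. All KO libraries were above all WT libraries, as for 2.99% of all genes, and the Het libraries overlapped KO. Ccnd1 too was named for the smallest unadjusted p of its group. The log2 difference was 0.34 (SE 0.08, unadjusted p = 0.00171, adjusted p = 0.913), and 0.30 (SE 0.10, adjusted p = 0.731) without library 6. Ccng1, a p53 target, ranged from 48.5 to 52.0 RPKM in WT and from 30.4 to 51.0 in KO, and its log2 difference of -0.37 (SE 0.16) became -0.18 without library 6. Btg2, an antiproliferative immediate early gene, was the most abundant of the group, at 486 ± 33.2 RPKM in WT and 499 ± 53.8 in KO.

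The regulators of the mitotic wave were counted the same way. Of 6 tested genes of MuvB, B-Myb and FoxM1 (7 listed), 0 reached an unadjusted p under 0.05, 4 were above 0 and the median was 0.04, or 0.03 without library 6. Foxm1 was at 1.95, 1.59, 2.06 and 1.83 RPKM in WT, 1.83, 1.18 and 1.45 in Het, and 1.74, 1.58 and 3.07 in KO. In library 6, where most mitotic genes were highest, Foxm1 lay within the WT range; KO library 12 was above that range. Mybl2, the gene of B-Myb, was at 0.0659 to 0.502 RPKM over all libraries and was not tested.

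Of 49 tested genes of kinetochore, spindle, condensin and cytokinesis (59 listed), 3 were higher and 1 lower at an unadjusted p under 0.05, against 3.32% and 1.81% of all genes, 34 were above 0, against 57.2%, and the median was 0.14, or 0.02 without library 6. Racgap1, a central spindle regulator, averaged 0.846 RPKM ± 0.243 in WT and 1.53 ± 0.628 in KO (log2 difference 0.62, SE 0.23; 0.38, SE 0.27, without library 6). Pttg1, securin, averaged 24.6 ± 9.29 in WT and 16.9 ± 4.23 in KO (log2 difference -0.55, SE 0.22). It was highest in WT library 4, at 37.8 RPKM, and lowest in KO library 6, at 13.1. Without library 6, 1 of 47 tested genes of this group was higher and 0 were lower at an unadjusted p under 0.05 (limma). The shares of all genes were then 4.56% and 1.86%. Of 17 tested genes of the DNA damage checkpoint and S-phase repair (20 listed), 1 was higher and 0 lower at an unadjusted p under 0.05, against 3.32% and 1.81% of all genes, 8 were above 0, against 57.2%, and the median was -0.01, or -0.06 without library 6. Rad54l, a helicase-like motor of homologous recombination, averaged 2.28 ± 0.266 RPKM in WT and 3.08 ± 0.113 in KO (log2 difference 0.36, SE 0.16). Without library 6, 0 of the 17 genes of this group were higher and 0 lower at an unadjusted p under 0.05 (limma), against 4.56% and 1.86% of all genes.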

How the data were processed

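RNA was measured in 10 bead-isolated microglial libraries: total RNA from a column kit, amplified cDNA libraries and Illumina sequencing, per the labels' protocols. The RPKM values were computed and deposited by the authors. Per the submitters' processing notes, the genome build was mm10 and the tools were HTSeq, STAR, limma and edgeR. Their versions, the annotation and the strand setting were not given in the sources used here. Every table lists 24060 names; 27 that a spreadsheet had turned into dates were dropped.

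Whole reads were recovered from the RPKM values for all 20008 genes above 0 (tolerance 0.02 reads, largest distance 0.0003), giving 17.6 M to 45.1 M (megareads) per library; few reads limit the scarcest genes. Values were tested as log2(RPKM + 0.5), which understates changes of low genes, with limma 3.58.1 in R 4.3.3 (mean-variance trend; genotype and sex; all 10 libraries in 1 fit; 13621 genes that reached 0.5 RPKM in 3 or more libraries; two-sided; Benjamini-Hochberg adjustment over all of them; call at an adjusted p under 0.05). The step was tested on simulated data, which held no sex effect and no library set apart from its group. Tables and figures were made with Python 3.11.15, pandas 2.3.3 and matplotlib 3.10.9. Coordinates and exon overlaps are from GENCODE M21 (GRCm38, which mm10 denotes); promoters are from RefSeq.

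The result of 1 marker gene is not reported here. The members and all lists were chosen with earlier results of these data known. In each group of members, the 4 with the highest mean and the 4 with the largest KO against WT difference are given library by library. Genes of the 5 further pathway lists were named from the 3 most abundant and the 3 of smallest p in each list; Mybl2 and the genes whose exons overlap members were named after their values were seen. Alternatives were other pseudocounts, filters, scaling, weights, terms and tools, and leaving out each library.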

Additional observations from a re-analysis of the deposited data

Results flagged for a closer look

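In the 4 WT libraries, 4 genes had 1 library far from the other 3, measured as its gap to the nearest library over the whole range. WT library 10, the deepest, stood above the others for 3 of them: Ube2c was at 3.41 RPKM against 1.76 to 1.8, Cdk1 at 0.605 against 0.205 to 0.233, and Mcm2 at 3.79 against 1.88 to 2.17. Pcna was low in WT library 7, at 40.6 RPKM against 48.1 to 49.2 in the others. These are 4 of 45 sets of values examined, and chance marks about 1 in 20. The Het and KO groups of 3 libraries were not examined this way.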

How the results depend on the processing

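In all 3 comparisons, 0 members were called under each of the 21 alternatives; the lowest adjusted p of any member in KO against WT was 0.381 (male libraries only, limma). The median log2 difference in KO against WT stayed above 0, from 0.18 (without KO library 6) to 0.47 for mitotic genes and from 0.21 to 0.35 for S-phase genes when 1 library was left out, and from 0.22 (male libraries only) to 0.57 (pseudocount 0.1) and 0.20 to 0.33 under the other settings. The number of members at an unadjusted p under 0.05 in KO against WT was 4, but 9 without WT library 4, 8 with limma-voom and 1 without KO library 6 or in males only. In KO against Het it was 7, but 2 without Het library 11 or KO library 6, and 4 without Het library 5 or KO library 12. It was 3 with sample quality weights or with limma-voom without KO library 6. The count rose to 9 without KO library 9 or with only the 2 genotypes compared, and to 8 without WT library 1 or WT library 4. Males only left Het library 8 alone in its group, so no count is given for that fit. Of 292 alternative values of the 14 members given library by library, 286 kept their direction and 6 turned; the cause was not tested. Pcna turned to 0.021 in male libraries (main value -0.19). Tk1 (main value -0.07) turned to 0.192 in male libraries, to 0.18 with limma-voom without KO library 6, a setting chosen after seeing the data, and above 0 without WT library 1, WT library 7 or KO library 6; leaving out 1 library gave values from -0.316 (WT library 4) to 0.145 (KO library 6). Median-ratio scaling moved the median of all genes from 0.03 to 0.00. Count models (edgeR, DESeq2) were not run; limma-voom was fitted to the recovered reads in their place. No paired analysis was run, because the labels name no pairs of libraries. Moderate differences of genes with under 10 reads in a library could be missed at this depth.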
